A study of Mus musculus with 4 samples.

Results

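Immediate-early genes of the Egr, Nr4a and Ier families were followed in RNA sequencing of mouse muscle stem cells, with and without a conditional knockout of Hairless (Hr), a nuclear corepressor. The 10 genes were chosen by symbol, and all 10 were found among the 11603 genes of the deposited table. They were Egr1, Egr2 and Egr3, Nr4a1, Nr4a2 and Nr4a3, and Ier2, Ier3, Ier5 and Ier5l. There were 2 libraries labelled conditional Hairless knockout and 2 control libraries. Both groups came from the hindlimb muscles of male C57BL/6 mice aged 4 to 5 months, and the cells of both were sorted as VCAM1 positive and negative for CD31, CD45 and Sca1. The labels name neither the driver and time of the deletion nor the alleles the controls carry. They do not say whether same-group libraries were made from different mice, and the spread that the p-values use may therefore be technical.

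Immediate-early genes are transcribed within minutes of a stimulus without new protein synthesis, and their RNAs are short-lived. Growth factors, stress and calcium reach them through ERK and p38 kinases, which act on SRF with its ternary complex partners, and through cAMP and CREB. EGR proteins are zinc finger transcription factors that bind GC-rich sites. NR4A proteins are orphan nuclear receptors that bind DNA without a known requirement for a ligand. IER is a name for proteins whose genes were found by their rapid induction, of which IER2, IER5 and IER5L are related and IER3 is not. In muscle stem cells, such genes are known to be transcribed when muscle is dissociated and the cells leave quiescence.

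Values are RPKM, reads scaled by exon length and by a size for each library, so levels can be compared between genes. The libraries held 34101213 and 21757211 reads on listed genes in knockout 1 and knockout 2, and 26990809 and 22577330 in control 1 and control 2. The size that the authors' values imply was smaller than these totals, 75.7% and 75.5% of them in knockout and 85.9% and 92.4% in control, and scaling by the reads listed uses the totals instead. Hr itself had 7.15 and 7.90 RPKM in the libraries labelled knockout and 9.28 and 8.94 RPKM in control, and its log2 fold change of -0.26 had a limma adjusted p of 0.431. The deleted exons are not named in the labels, so the level of the whole gene is a limited check, and knockout is used here as the label gives it. Markers of the sorted cells were present: Vcam1 had 155 and 101 RPKM in knockout and 145 and 108 RPKM in control. Ptprc, which encodes the CD45 antigen, was at most 0.0399 RPKM in any library. Pecam1, which encodes CD31, had 5.51 and 9.66 RPKM in knockout and 8.04 and 11.9 RPKM in control. Ly6a, which encodes Sca1, had 77.4 and 80.7 RPKM in knockout and 47.9 and 49.5 RPKM in control, although the gate was negative for Sca1.

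The 10 genes ranged from among the most abundant transcripts of these cells to the middle of the table. Egr1 was the most abundant of them, with 2097 and 3384 RPKM in knockout and 1515 and 2289 RPKM in control, and ranked 16 of 11603 by mean level. Ier2, Ier5, Ier3 and Nr4a1 followed. Egr2, Nr4a2, Nr4a3 and Ier5l came after these. Egr3, at rank 5777, was the least abundant, with 6.29 and 5.55 RPKM in knockout and 6.88 and 7.44 RPKM in control. The order was the same in all 4 libraries, except that Ier3 stood above Ier5 in knockout 2 alone. Over the 4 libraries, the ranges of Ier2 and Ier5, of Ier5 and Ier3, of Ier3 and Nr4a1, of Nr4a2 and Nr4a3, and of Nr4a3 and Ier5l overlapped, while the other neighbours were apart. The 10 genes together held 1.12% and 1.73% of the listed reads in knockout and 0.942% and 1.41% in control. The share in control 2 was thus above that in knockout 1.

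**Figure D1:**
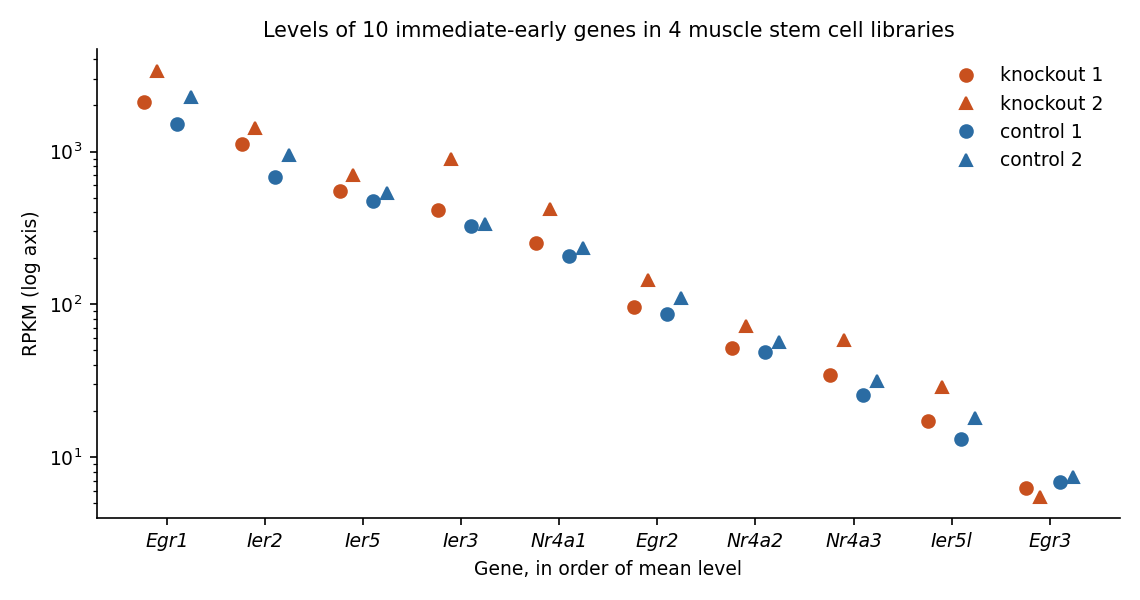
RPKM on a log axis of the 10 genes, in order of mean level, in knockout 1, knockout 2, control 1 and control 2, with 1 point per library. Egr1 lies between 1515 and 3384 RPKM and Egr3 between 5.55 and 7.44 RPKM, and knockout 2 holds the highest point of every gene except Egr3.

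Hr knockout and control libraries were compared to ask which of these transcripts differ with the deletion. Of the 10 genes, 9 had a higher mean in knockout and Egr3 a lower one, where 48.2% of all genes had a positive log2 fold change. Under scaling by the reads listed Nr4a2 also had a negative value, a log2 fold change of -0.01. Of all 11603 genes, 3049 were positive under that scaling. Without knockout 2, Egr2 was at -0.02 and Nr4a2 at -0.01. None of the 10 passed limma, fitted with a trend to log2(RPKM + 0.5), at an adjusted p under 0.05 over all 11603 genes, which called 0% of genes higher and 0.00862% lower. At an unadjusted p under 0.05, limma counted 1 of the 10 higher, Ier2, and 0 lower, against 10.3% of all genes higher and 7.69% lower. limma-voom on the recovered reads called 0 of the 10, where it called 0.0259% of all genes higher and 0.0689% lower. By the q-value under 0.05 in the authors' deposited table, 0 of the 10 passed, where 3.59% of all genes were higher and 4.26% were lower. The smallest q-value of the 10 in the authors' deposited table was 0.0931, for Nr4a3. limma with the replicate number as a block called 1 of the 10, Nr4a3, higher at an adjusted p of 0.0414, where it called 5.09% of all genes higher and 3.56% lower, but no label says that the number pairs libraries.

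On the log2(RPKM + 0.5) scale the median log2 fold change was 0.52 over the 10 genes and -0.01 over all genes, with single genes from -0.26 to 0.88. The median was 0.16 without knockout 2, 0.84 without knockout 1, 0.27 without control 1 and 0.70 without control 2. With libraries scaled by the reads listed, the median of all genes was -0.20 and that of the 10 genes 0.28. In bulk RNA, more cells with the transcript and more RNA per cell cannot be told apart. Both knockout values lay above both control values in 5 of the 10 genes, Nr4a1, Nr4a3, Ier2, Ier3 and Ier5, against 25% of all genes. Both lay below in 1, Egr3, against 26.2% of all genes. Scaling by the reads listed left 1 gene above, Ier3, and 1 below, Egr3. The 25% and 26.2% were counted on the authors' scaling and are no baseline for these 2 counts. Relative to the all-gene median of -0.20, the 9 genes with a positive value on the authors' scaling all remained higher. Egr3, at -0.47, was lower than that median.

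**Figure D2:**
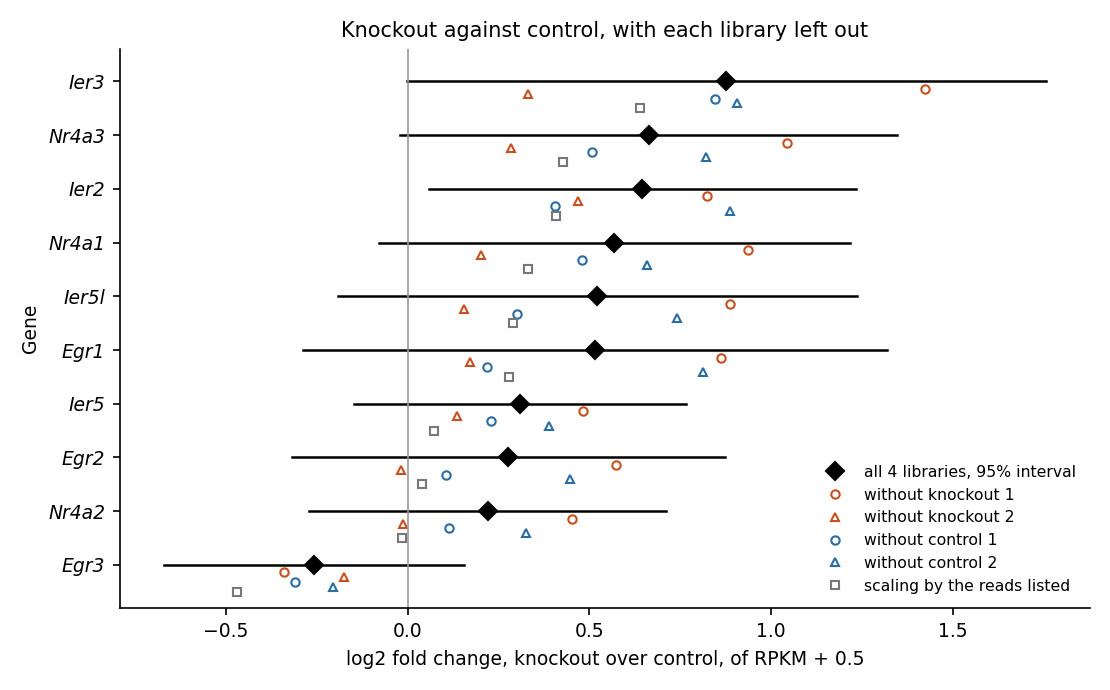
Log2 fold change of knockout over control, on the scale of RPKM + 0.5, for each of the 10 genes (rows), with its 95% interval from limma as a black line, and the value without each library or with libraries scaled by the reads listed as open symbols. Ier2 is the 1 gene whose interval lies above 0. The value without knockout 2 is below that of all 4 libraries in every gene except Egr3, and Egr2 and Nr4a2 are then at -0.02 and -0.01.

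In the Egr family the abundant Egr1 and Egr2 had higher means in knockout and the rare Egr3 a lower one, and none passed limma. Egr1 (chromosome 18, 34859823 to 34864984, plus strand, mm10), the best known early growth response factor, averaged 2741 ± 910 RPKM in knockout and 1902 ± 548 RPKM in control (SD, n = 2 each). Control 2, at 2289 RPKM, was above knockout 1, at 2097 RPKM, so the groups overlapped. The log2 fold change was 0.52, with a standard error of 0.32, a 95% interval from -0.29 to 1.32 and a limma adjusted p of 0.449. Without knockout 2 it was 0.17, and without control 1 it was 0.22.

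Egr2 (chromosome 10, 67535475 to 67542188, plus strand), known for its part in Schwann cell myelination, had 96.2 and 145 RPKM in knockout and 86.6 and 109.8 RPKM in control. The groups overlapped, and the log2 fold change of 0.28 (standard error 0.24) had a limma adjusted p of 0.580. Without knockout 2 it was -0.02.

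Egr3 (chromosome 14, 70077445 to 70080157, plus strand), which mice need to form muscle spindles, was the exception in the set. Its 6.29 and 5.55 RPKM in knockout lay below its 6.88 and 7.44 RPKM in control. The log2 fold change was -0.26, its standard error 0.17 and its limma adjusted p 0.462. Egr3 rested on 230 and 129 reads in knockout and 226 and 220 reads in control, and the exact Poisson 95% interval of the 129 reads, which covers counting error alone, ran from 108 to 153. All other genes of the set had at least 819 reads in every library. Egr1 was 333 and 610 times Egr3 in knockout and 220 and 308 times Egr3 in control, per length. This ratio was higher in both knockout libraries. Its exact two-sided permutation p of 0.333 was the smallest that 2 against 2 libraries allow, so the test cannot set it apart from other ratios.

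RefSeq promoters of GRCm38.p6, from 250 bases before to 50 bases after a start site, were found for 7 of the 10 genes, all but Egr1, Egr3 and Ier2. They were searched on both strands for the CArG box bound by SRF and for TGACG, the core of the cAMP response element (CRE) bound by CREB. The Egr2 window is shown because it was the 1 of the 7 with a CArG box, which 1.63% of the 32851 promoters in the RefSeq table hold. Of the Egr2 start sites in that table, the one shared by most exon entries of the deposited table was used. The 249 bases before the exon there, chr10:67537620-67537868 on the plus strand, have the CArG box and 2 CRE cores in capitals.
Egr2: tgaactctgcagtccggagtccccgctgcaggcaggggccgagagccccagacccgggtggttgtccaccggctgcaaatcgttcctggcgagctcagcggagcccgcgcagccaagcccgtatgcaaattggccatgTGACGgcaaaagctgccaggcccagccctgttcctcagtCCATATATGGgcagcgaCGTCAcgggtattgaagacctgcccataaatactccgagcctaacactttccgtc

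The Nr4a receptors had higher means in knockout in all 3 genes, except that Nr4a2 was at -0.01 on the log2 scale under scaling by the reads listed or without knockout 2, and none passed limma. Nr4a1 (chromosome 15, 101266846 to 101274792, plus strand), also called Nur77 and known in muscle for raising glycolytic gene expression, had 254 and 422 RPKM in knockout and 207 and 235 RPKM in control. Both knockout libraries were above both controls, knockout 1 narrowly and knockout 2 by a wide margin. The log2 fold change was 0.57, with a standard error of 0.26, a 95% interval from -0.08 to 1.22 and a limma adjusted p of 0.323. Without knockout 2 it was 0.20.

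Nr4a3 (chromosome 4, 48045153 to 48086447, plus strand), also called Nor1, had 34.7 and 59.0 RPKM in knockout and 25.4 and 31.7 RPKM in control, and the groups did not overlap. The log2 fold change of 0.66 (standard error 0.28) had a limma adjusted p of 0.287 and was 0.28 without knockout 2. Nr4a2 (chromosome 2, 57106830 to 57124003, minus strand), also called Nurr1 and known for its part in dopamine neurons, had 51.9 and 71.9 RPKM in knockout and 48.6 and 56.4 RPKM in control. Its groups overlapped, with a log2 fold change of 0.22 (standard error 0.20, limma adjusted p 0.591). Without knockout 2 its value was -0.01.

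Nr4a1 was the most abundant receptor in every library. Of the summed RPKM of the 3 receptors, Nr4a1 made up 74.6% and 76.3% in knockout and 73.7% and 72.7% in control. Nr4a3 made up 10.2% and 10.7% in knockout and 9.03% and 9.81% in control. Nr4a2 made up 15.3% and 13.0% in knockout and 17.3% and 17.5% in control, so both knockout shares of Nr4a2 were lower, and both shares of Nr4a1 and Nr4a3 were higher. Nr4a1 was 4.89 and 5.88 times Nr4a2 in knockout and 4.26 and 4.16 times Nr4a2 in control. It was 7.32 and 7.16 times Nr4a3 in knockout and 8.16 and 7.41 times Nr4a3 in control. Both ratios had an exact two-sided permutation p of 0.333, the smallest that 2 against 2 libraries allow, so the test cannot set them apart from other ratios. In the Egr family, Egr1 made up 95.3% and 95.7% of the sum in knockout and 94.2% and 95.1% in control.

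The 3 Nr4a promoters are shown because each held 4 copies of the CRE core TGACG, on either strand, in its window of 300 bases. Of all promoters searched, 20.8% held at least 1 copy, and 0.231% held at least 4. The full palindrome TGACGTCA was in none of the 7 windows searched and in 1.79% of all promoters. The letters below are the bases before the exons of the deposited table, with CRE cores in capitals. They cover chr15:101266596-101266845 on the plus strand for Nr4a1, chr2:57124004-57124253 on the minus strand for Nr4a2 and chr4:48045055-48045152 on the plus strand for Nr4a3, where 3 of the 4 copies fall in the bases shown. The EGR site GCGNGGGCG was found in the Nr4a1 and Nr4a2 windows and in 5.55% of all promoters, and AAAGGTCA, the site at which a single NR4A protein binds, was in none of the 7 windows and in 1.51% of all promoters. These matches are a description of the letters and show no binding.
Nr4a1: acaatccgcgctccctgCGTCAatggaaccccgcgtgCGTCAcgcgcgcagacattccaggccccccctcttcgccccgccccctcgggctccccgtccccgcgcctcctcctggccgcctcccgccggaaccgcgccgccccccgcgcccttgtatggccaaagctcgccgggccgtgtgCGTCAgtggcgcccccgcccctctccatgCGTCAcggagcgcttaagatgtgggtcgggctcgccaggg
Nr4a2: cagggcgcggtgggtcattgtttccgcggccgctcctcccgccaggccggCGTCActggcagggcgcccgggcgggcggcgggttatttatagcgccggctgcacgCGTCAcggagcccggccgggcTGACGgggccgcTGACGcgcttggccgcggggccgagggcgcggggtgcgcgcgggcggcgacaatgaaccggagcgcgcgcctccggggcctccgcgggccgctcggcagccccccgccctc
Nr4a3: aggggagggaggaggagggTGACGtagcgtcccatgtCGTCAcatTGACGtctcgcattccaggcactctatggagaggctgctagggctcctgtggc

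The Ier genes had higher means in knockout in all 4 genes, also under scaling by the reads listed, and none passed limma. Ier2 (chromosome 8, 84661331 to 84662852, minus strand), which encodes a small nuclear protein, had 1119 and 1430 RPKM in knockout and 684 and 955 RPKM in control. Both knockout values exceeded both control values. Its log2 fold change of 0.65, standard error 0.24 and 95% interval from 0.06 to 1.23, had an unadjusted limma p of 0.0363 and a limma adjusted p of 0.246. It was 0.41 without control 1 and 0.47 without knockout 2.

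Ier3 (chromosome 17, 35821684 to 35822923, plus strand), also called IEX-1, is a target of NF-kappa-B that acts on cell survival. It had 416 and 887 RPKM in knockout and 324 and 337 RPKM in control. The 2 controls were close together, while knockout 2 was 2.13 times knockout 1. Its log2 fold change of 0.88 was the largest of the 10, with a standard error of 0.35, a 95% interval from -0.0024 to 1.76 and a limma adjusted p of 0.280. Without knockout 2 it was 0.33, and without knockout 1 it was 1.42.

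Ier5 (chromosome 1, 155096361 to 155099636, minus strand), which binds the phosphatase PP2A and the heat shock factor HSF1, had 554 and 705 RPKM in knockout and 477 and 532 RPKM in control. The groups did not overlap, but knockout 1 was close to control 2, and the log2 fold change of 0.31 (standard error 0.18) had a limma adjusted p of 0.427. Ier5l (chromosome 2, 30471537 to 30474219, minus strand), a relative of Ier5 that is little studied, had 17.3 and 29.0 RPKM in knockout and 13.2 and 18.1 RPKM in control. Control 2 was above knockout 1, and the log2 fold change of 0.52 (standard error 0.29) had a limma adjusted p of 0.394. Without knockout 2 the values were 0.14 for Ier5 and 0.16 for Ier5l.

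The Ier3 promoter is shown because its gene had the largest difference. Its window held an NF-kappa-B site, a motif that 8.46% of all promoters hold, and no CRE core or CArG box. Nr4a1 was the other of the 7 with an NF-kappa-B match. The 221 bases before the exons of Ier3, chr17:35821463-35821683 on the plus strand, have the NF-kappa-B site in capitals.
Ier3: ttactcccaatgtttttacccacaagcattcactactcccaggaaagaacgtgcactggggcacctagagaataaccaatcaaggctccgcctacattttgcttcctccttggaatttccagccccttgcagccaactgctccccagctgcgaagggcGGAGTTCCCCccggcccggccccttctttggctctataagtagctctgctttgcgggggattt
The Ier5 and Ier5l windows held 2 CCAAT boxes each and no CRE core. The CCAAT motif was in 4 of the 7 windows and in 37.4% of all promoters.

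Of the 10 genes, 9 had their lowest value in control 1 and their highest in knockout 2, a pattern that 11.1% of all genes showed. The difference between 2 libraries of a group exceeded the difference between the groups in 8 of the 10 genes, against 61.3% of all genes. Knockout 2 was above knockout 1 in 9 of the 10, all but Egr3, and control 2 was above control 1 in 10 of 10. Over all genes these shares were 52.2% and 50.6%. On the log2 scale, knockout 2 exceeded knockout 1 by a median of 0.64 over the 10 genes and 0.02 over all genes, and control 2 exceeded control 1 by a median of 0.26 and 0.00. Ier3 and Egr1 differed in this respect. In Ier3, knockout 2 exceeded knockout 1 by 1.09, and control 2 exceeded control 1 by 0.06. In Egr1 these differences were 0.69 and 0.60. Compared with their sign, the 1.09 was above 99.2% of genes, and the Egr1 differences were above 96.5% of genes in either group.

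**Figure D3:**
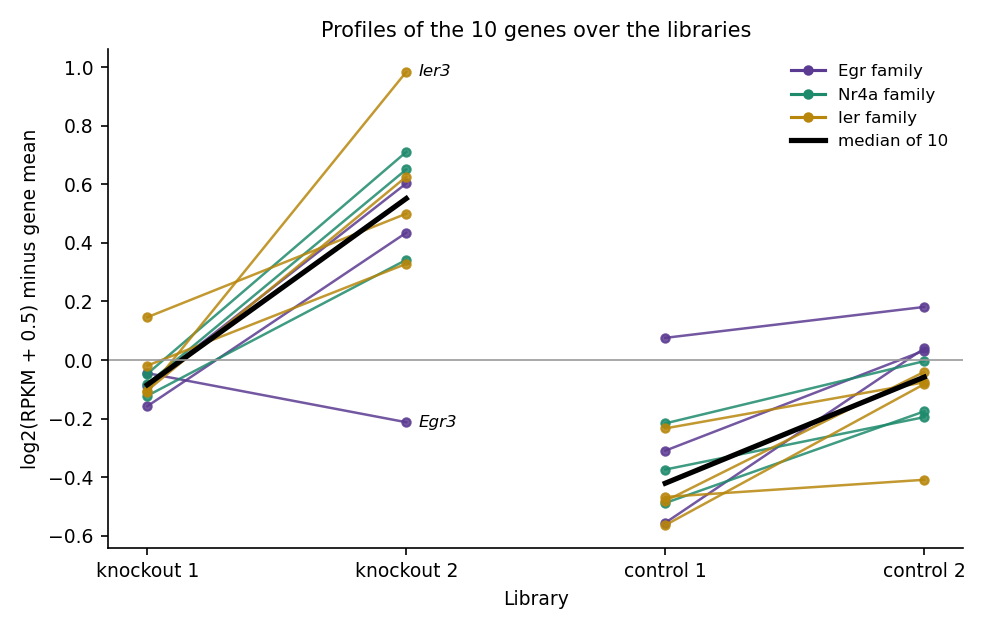
Log2(RPKM + 0.5) minus the gene's mean over the 4 libraries, by library, for the 10 genes coloured by family, with the median of the 10 in black. Lines join the libraries of a group to mark each gene. The median is 0.55 in knockout 2, -0.08 in knockout 1, -0.06 in control 2 and -0.42 in control 1, and Egr3 is the 1 gene with its lowest point in knockout 2.

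**Figure D4:**
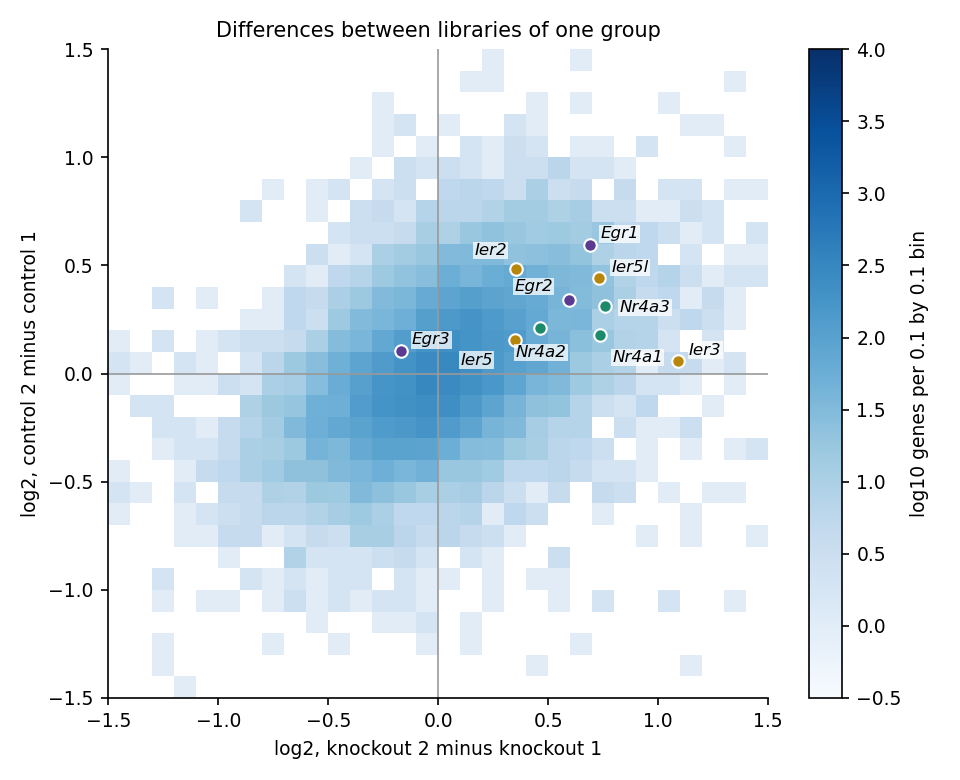
Log2 difference of knockout 2 minus knockout 1 (horizontal) and of control 2 minus control 1 (vertical), with the number of all genes in each bin shaded on a log10 scale and the 10 genes as points. Genes beyond the axes are not drawn. Of the 10 genes, 9 lie right of and above 0 on both axes, as 34.4% of all genes do, and Egr3 lies left of 0.

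The summed level of 5 myofibre markers was 47.9 and 44.7 RPKM in knockout and 159 and 620 RPKM in control, highest in control 2, and without Acta1 it was 11.4 and 12.8 RPKM in knockout and 15.1 and 165 RPKM in control. For 5 endothelial markers it was 22.3 and 31.8 RPKM in knockout and 27.3 and 33.0 RPKM in control, and for 5 blood markers 12.0 and 18.4 RPKM in knockout and 16.5 and 16.2 RPKM in control. For 3 fibro-adipogenic markers the sum was 451 and 288 RPKM in knockout and 256 and 215 RPKM in control, and without Dpt it was 128 and 164 RPKM in knockout and 125 and 98.3 RPKM in control. The sum of 4 smooth muscle or pericyte markers was 161 and 234 RPKM in knockout and 340 and 492 RPKM in control, and that of 2 Schwann cell markers was 4.32 and 10.8 RPKM in knockout and 11.0 and 13.2 RPKM in control. The smooth muscle sum was mostly Acta2, and its other 3 markers summed to 13.0 and 29.0 RPKM in knockout and 18.9 and 17.9 RPKM in control. The endothelial, smooth muscle and Schwann sums, like Egr1, were higher in library 2 than in library 1 of both groups. The 8 muscle stem cell markers summed to 3550 and 3736 RPKM in knockout and 2658 and 2146 RPKM in control, most of it Sdc4. The other 7 summed to 519 and 476 RPKM in knockout and 537 and 564 RPKM in control. Among them Itga7 was lower and Myf5 higher in both knockout libraries, and in the rest the groups overlapped. Itga7 was at most 61.9 RPKM in knockout and at least 90.8 RPKM in control. Myf5 had 103 and 106 RPKM in knockout and 84.5 and 69.7 RPKM in control. The part of these differences in the values of the 10 genes was not tested.

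As genes the 10 were compact. Their median span on the genome was 4219 bases, against 24317 for all genes, and 9 of the 10 were under that median, all but Nr4a3. Ier2, Ier5 and Ier5l each had a single exon block, as 2.21% of all genes did. No other gene of GENCODE M21 overlapped any of the 10, on either strand.

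Other immediate-early genes had a higher mean in knockout in 32 of 40, where 48.2% of all genes had a positive log2 fold change. Under scaling by the reads listed, 25 of the 40 were positive, and 3049 of all 11603 genes. The list had 41 genes, of which 40 were measured, and limma called 0 of the 40. At an unadjusted p under 0.05 there were 15 higher and 2 lower, against 10.3% and 7.69% of all genes, and limma-voom called 0 of the 40. limma with the replicate block called 6 of the 40 higher and 1 lower, against 5.09% and 3.56% of all genes. The 2 lower at an unadjusted limma p under 0.05, named after their values were seen, were Dusp6, a phosphatase that acts on ERK, and Klf10. Dusp6 had 38.3 and 31.9 RPKM in knockout and 49.7 and 54.1 RPKM in control. Klf10 had 36.0 and 38.2 RPKM in knockout and 46.7 and 48.3 RPKM in control. The median log2 fold change of the 40 was 0.39, and 0.21 without knockout 2. Scaled by the reads listed it was 0.16, against -0.20 over all genes. The groups did not overlap in 22 of the 40 that were higher and 5 that were lower, against 25% and 26.2% of all genes. By the q-value in the authors' deposited table, 6 of the 40 were higher and 0 were lower, against 3.59% and 4.26% of all genes, the 6 being Junb, Gadd45b, Dusp1, Btg2, Btg1 and Zfp36l1. The most abundant were Junb and Fos, which encode AP-1 subunits. Junb had 1756 and 3026 RPKM in knockout and 1177 and 1439 RPKM in control, with a log2 fold change of 0.82 and a limma adjusted p of 0.245. Fos had 1986 and 2264 RPKM in knockout and 1325 and 1214 RPKM in control, with a log2 fold change of 0.74 and a limma adjusted p of 0.177. Library 2 was above library 1 in both groups in 18 of these 40 genes, against 34.4% of all genes and 9 of the 10 genes of the Egr, Nr4a and Ier set. Control 1 was lowest and knockout 2 highest in 14 of the 40, Junb among them, against 11.1% of all genes. Differences between the 2 sets were not tested.

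The list medians of upstream factors and of kinases lay nearer to the median of all genes than the median of the 10 genes did. SRF, ternary complex, MEF2 and CREB factors had a median log2 fold change of -0.07 over 17 genes. Genes of the ERK and p38 cascade had 0.02 over 18. Scaling by the reads listed gave -0.30 and -0.18, where the median of all genes was -0.20. limma called 0 in either list, and with the replicate block it called Crem higher, Mef2c, named after its values were seen, lower and none of the kinases. Over all genes the block fit called 5.09% higher and 3.56% lower. At an unadjusted p under 0.05 limma without the block counted 1 higher among the factors, Crem, and 0 among the kinases. Over all genes it counted 10.3% higher and 7.69% lower. limma-voom called 0 in both lists. Crem, a CREB relative that is itself induced by cAMP and was the most abundant of the factors, had 46.3 and 52.7 RPKM in knockout and 28.4 and 23.1 RPKM in control. Its log2 fold change of 0.93 had a limma adjusted p of 0.140 and a q-value of 0.00255 in the authors' deposited table, the 1 of the 17 under 0.05. By that q-value 3.59% of all genes were higher and 4.26% were lower. Atf1, another CREB relative, had 42.8 and 38.9 RPKM in knockout and 39.0 and 28.2 RPKM in control. The most abundant kinases were Map2k3, with 510 and 367 RPKM in knockout and 512 and 417 RPKM in control, and Mapkapk2, with 136 and 139 RPKM in knockout and 158 and 121 RPKM in control. Srf, named after its values were seen, had 12.0 and 19.8 RPKM in knockout and 15.4 and 22.4 RPKM in control, higher in library 2 of both groups.

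Partners and described targets of these proteins showed no call in limma without the replicate block. With the block the EGR targets Sphk1 and Tgfb1 were called, Sphk1 higher and Tgfb1 lower, against 5.09% and 3.56% of all genes. The 8 binding partners measured had a median log2 fold change of 0.10, and of -0.01 without control 2. Scaled by the reads listed it was -0.14, against -0.20 over all genes. At an unadjusted limma p under 0.05 there were 0 of the 8, where 10.3% of all genes were higher and 7.69% lower. limma-voom called 0. The most abundant were the PP2A subunits Ppp2ca, with 176 and 171 RPKM in knockout and 146 and 123 RPKM in control, and Ppp2r1a, with 123 and 127 RPKM in knockout and 103 and 96.7 RPKM in control. Nab2, a corepressor that binds EGR proteins and is also on the EGR target list with Nab1, was named after its values were seen. It had 16.2 and 10.5 RPKM in knockout and 13.3 and 11.9 RPKM in control.

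The 8 described EGR targets had a median of 0.07, and of -0.02 without knockout 1. Scaled by the reads listed it was -0.16, against -0.20 over all genes. At an unadjusted limma p under 0.05 there were 1 higher and 1 lower of the 8, against 10.3% and 7.69% of all genes. limma-voom called 0. The most abundant were Cdkn1a, which encodes the cell cycle inhibitor p21, and Vegfa, the vascular growth factor. Cdkn1a had 1171 and 1689 RPKM in knockout and 950 and 1144 RPKM in control, and Vegfa had 79.1 and 67.7 RPKM in knockout and 67.5 and 69.1 RPKM in control. The pair under an unadjusted p of 0.05, named after their values were seen, were Sphk1, a sphingosine kinase, and the growth factor gene Tgfb1. Sphk1 had 34.6 and 45.5 RPKM in knockout and 21.1 and 29.4 RPKM in control, and Tgfb1 had 13.2 and 11.2 RPKM in knockout and 18.5 and 19.8 RPKM in control.

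Muscle metabolism genes described as responsive to NR4A had a median of -0.51 over the 6 measured of 8 listed. It was -0.14 without control 2 and -0.79 without control 1. Scaled by the reads listed it was -0.72, against -0.20 over all genes. At an unadjusted limma p under 0.05 there were 1 higher and 0 lower, against 10.3% and 7.69% of all genes. limma-voom called 0. Pygm, the muscle glycogen phosphorylase, had 18.5 and 12.8 RPKM in knockout and 19.9 and 25.9 RPKM in control. Eno3, the muscle enolase, had 5.90 and 6.20 RPKM in knockout and 4.96 and 20.5 RPKM in control, highest in control 2, the library with the highest sum of myofibre markers. By the q-value in the authors' deposited table, 1 of the 6 was lower, Pgam2, against 4.26% of all genes. Pgam2 had 2.07 and 2.03 RPKM in knockout and 2.46 and 23.9 RPKM in control, where control 2 again stood apart. The 1 higher at an unadjusted limma p under 0.05 was Slc2a4, the insulin-responsive glucose transporter, with 1.33 and 1.82 RPKM in knockout and 0.719 and 1.12 RPKM in control; Pgam2 and Slc2a4 were also named after their values were seen. In the authors' deposited table none of the binding partners or EGR targets passed.

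**Figure D5:**
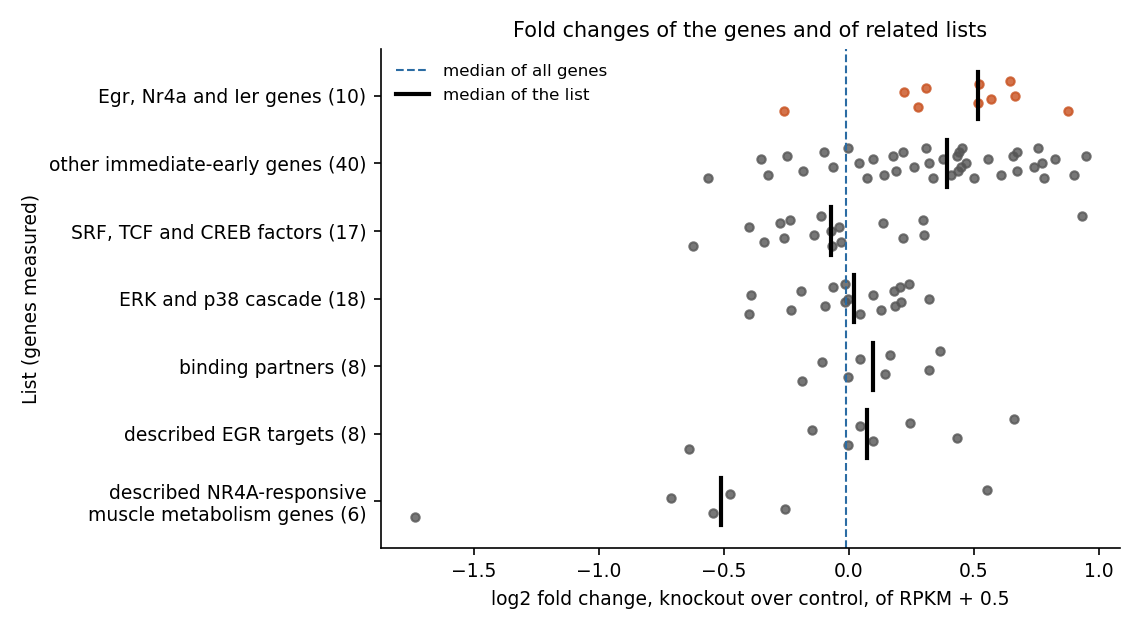
Log2 fold change of knockout over control, on the scale of RPKM + 0.5, for each measured gene (points) of the Egr, Nr4a and Ier set and of 6 related lists. Black bars are list medians, and the dashed line is the median of all genes, -0.01. Scaling by the reads listed lowers the list medians, and the median of all genes is then -0.20. Vertical scatter within a row has no meaning. The medians are 0.52 for the 10 genes and 0.39 for other immediate-early genes.

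The 5 genes outside the set whose profile over the 4 libraries was most like the median of the 10 were Tkt, Klf13, Dusp28, Nelfe and Acyp1. Likeness was the Euclidean distance between log2(RPKM + 0.5) values centred on each gene's mean, among genes with a mean of at least 1 RPKM. Tkt was nearest, and the distance was 0.0578 for Klf13, 0.0611 for Dusp28, 0.0658 for Nelfe and 0.0691 for Acyp1. Klf13, a Krüppel-like factor, had 33.7 and 52.3 RPKM in knockout and 26.9 and 35.9 RPKM in control. Of the 10 genes themselves, Ier5l was nearest to the median profile, at 0.0998, and Egr3 was farthest, at 0.943.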

How the data were processed

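RNA of sorted muscle stem cells was sequenced in 2 knockout and 2 control libraries. Per the labels' protocols, total RNA was amplified with a SMART-Seq v4 low-input kit before library preparation. Trim Galore, STAR, featureCounts and edgeR were used on build mm10, per the submitters' processing notes; versions, settings and the row filter are not stated there. The per-sample values deposited by the authors carry no unit in the header and were taken as RPKM, reads the authors scaled by gene length and a size per library, because value times length gave whole reads within 0.01 for 100% of values. Columns beginning with Ct were matched to control samples and those beginning with Fl, which the labels do not spell out, to knockout samples. The q-value per gene is the authors' deposited value.

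limma 3.58.1 in R 4.3.3 was fitted to log2(RPKM + 0.5) of all 11603 genes with genotype as the only term, with Benjamini-Hochberg adjustment and a threshold of 0.05. A log2 fold change on this scale understates the change of low genes. limma-voom on recovered reads, other pseudocounts, scalings and filters, a replicate block and leaving out each library were alternatives. The fits were tested on simulated data. Spread between libraries, counting error included, sets the precision.

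The 10 genes and the 6 lists were chosen with earlier results of these data known. Named were the 10 genes, Hr, the 2 most abundant measured members of each list where none passed, and the 5 nearest profiles. Others are said to be named after their values were seen. Exon positions are those of the deposited table, and promoters those of RefSeq, with the window whose start site matched most exon entries of that table.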

Additional observations from a re-analysis of the deposited data

How the results depend on the processing

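None of the 10 genes passed the threshold in the limma fit or in any alternative except the fit with the replicate number as a block, which called 1, Nr4a3, at an adjusted p of 0.0414. With that replicate block limma called 1004 genes of the table instead of 1, 591 higher and 413 lower (5.09% and 3.56%). Same-numbered libraries share only a number in the labels. Across all genes, which are not independent replicates, the differences between libraries 2 and 1 of the knockout and of the control group had a Pearson correlation of 0.39. limma-voom called 11 genes of the table. Leaving out a library gave 0 to 1 calls over all genes and 6 to 10 of the set with groups that did not overlap, which is easier to meet with 3 libraries. Scaling by the reads listed left 2 such genes of 6. No share of all genes without overlap is given for these settings. The counts of the set without overlap therefore have no baseline here, and no conclusion is drawn from them. Of 110 recomputed log2 fold changes of the 10 genes, 3 reversed: Nr4a2 to -0.0149 under that scaling, and Egr2 to -0.0192 and Nr4a2 to -0.0121 without knockout 2. Leaving out a library gave Egr2 values from -0.0192 to 0.57 and Nr4a2 values from -0.0121 to 0.45. With 2 libraries a group, missing the threshold does not show that the genes are alike in both genotypes. Egr3, with 129 to 230 reads, is the gene that depth limits most.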
